A study of Mus musculus with 2 samples.

Results

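The organic ion and drug transporters described here are the proteins that carry organic anions, organic cations and many drugs across cell membranes. They were chosen by gene symbol alone: probe sets annotated with a single gene whose symbol begins with Slco, Slc22a, Slc47a or Abcc, together with Abcb1a, Abcb1b and Abcg2. This gave 50 genes, read by 91 probe sets, of 18193 genes named on the array. Of these, 36 genes belong to the uptake families Slco and Slc22a, 12 to the efflux families Slc47a, Abcc, Abcb1 and Abcg2, and 2 (Abcc8 and Abcc9) encode sulfonylurea receptors, which are subunits of potassium channels and not drug pumps. The symbol rule also takes in Slc22a17, whose product is known as a receptor for lipocalin-2, and Abcc6, which is needed for release of ATP from the hepatocyte. Uptake and efflux genes below mean members of these families. The direction was assigned by symbol and not gene by gene, so the uptake genes include Slc22a23, which has no transport substrate assigned here.

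RNA was measured on Affymetrix mouse arrays in 2 livers from male mice aged 3 months, of strain 129Sv/C57BL6, after an overnight fast. One group was a Tmprss6-deficient mouse (genotype Tmprss6-/-, made by gene targeting, 1 animal) and the other a control mouse (1 animal), whose own genotype the labels do not give. Tmprss6 encodes matriptase-2, a hepatocyte membrane protease that restrains hepcidin production. With 1 array in each group there is no replicate error, no test was possible, and every difference below is one between these 2 animals.

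In background terms, organic anion transporting polypeptides (Slco) and many Slc22a carriers sit on the blood-facing membrane of the hepatocyte and bring bile acids, steroid conjugates, bilirubin, carnitine and drugs into the cell. Efflux pumps of the Abcc, Abcb1 and Abcg2 groups use ATP to move drugs and their glucuronide, sulfate and glutathione conjugates into bile or back to blood, and Slc47a1 exchanges organic cations for protons. In mouse liver the genes of these carriers are known to respond to nuclear receptors, to the liver factor HNF4A, and, for Slco1a1, to the sex-dependent pattern of growth hormone.

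The upstream sequences of 5 genes named in the results are shown. These genes are Slc22a30, Abcc2 and 3 neighbouring Slco1 genes that were lower to different extents in the Tmprss6-deficient liver. Slc22a30 had the lowest ratio of the carriers, and Abcc2 is the canalicular pump that was higher. Each sequence is the 250 bases before the annotated start, 5′ to 3′ on the gene's strand, from RefSeq, build GRCm38.p6. Capitals mark matches, on either strand, to 3 short motifs: the nuclear receptor half-site AGGTCA, the STAT5 element TTCNNNGAA and the antioxidant response core TGACNNNGC.
Slco1a1 (chr6:141946963-141947212, minus strand): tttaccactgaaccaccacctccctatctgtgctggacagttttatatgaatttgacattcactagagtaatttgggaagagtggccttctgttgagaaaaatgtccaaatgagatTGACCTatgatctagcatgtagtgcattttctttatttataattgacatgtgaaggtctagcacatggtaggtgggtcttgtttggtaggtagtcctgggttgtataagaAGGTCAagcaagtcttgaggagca
Slco1a4 (chr6:141856221-141856470, minus strand): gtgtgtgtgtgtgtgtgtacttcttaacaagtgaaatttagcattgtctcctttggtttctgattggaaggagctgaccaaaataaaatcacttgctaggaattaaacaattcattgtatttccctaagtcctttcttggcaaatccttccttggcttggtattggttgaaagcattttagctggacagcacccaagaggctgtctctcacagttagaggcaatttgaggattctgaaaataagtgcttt
Slco1b2 (chr6:141629268-141629517, plus strand): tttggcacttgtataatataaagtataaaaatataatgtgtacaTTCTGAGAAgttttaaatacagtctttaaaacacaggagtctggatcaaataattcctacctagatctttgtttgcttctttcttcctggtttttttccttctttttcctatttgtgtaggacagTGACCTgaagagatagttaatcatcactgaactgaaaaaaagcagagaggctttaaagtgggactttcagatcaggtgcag
Slc22a30 (chr19:8405106-8405355, minus strand): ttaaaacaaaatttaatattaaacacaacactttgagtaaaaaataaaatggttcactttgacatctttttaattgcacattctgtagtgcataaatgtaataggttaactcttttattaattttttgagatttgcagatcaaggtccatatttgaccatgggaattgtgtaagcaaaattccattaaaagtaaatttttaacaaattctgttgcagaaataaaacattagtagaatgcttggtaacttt
Abcc2 (chr19:43782058-43782307, plus strand): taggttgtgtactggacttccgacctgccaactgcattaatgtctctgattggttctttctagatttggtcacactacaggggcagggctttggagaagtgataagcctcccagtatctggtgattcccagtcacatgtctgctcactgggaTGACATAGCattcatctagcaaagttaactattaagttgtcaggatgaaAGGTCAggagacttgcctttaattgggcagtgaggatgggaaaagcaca
The Slco1a1 window held a half-site AGGTCA that begins 24 bases before the start and its reverse complement 134 bases before it. In the Slco1b2 window the half-site lay in reverse 81 bases and the STAT5 element 206 bases before the start. That of Abcc2 held a half-site at 49 bases and an antioxidant core at 98 bases, while the Slco1a4 and Slc22a30 windows matched none of the 3 motifs. RefSeq upstream windows were matched for 41 of the 50 genes, 19 of them detected on both arrays as defined below. Among these 19, the half-site occurred in 5, the STAT5 element in 4 and the antioxidant core in 3, counting any annotated start. Counted in the same way over 26980 other genes with windows of this length, the shares were 15.8%, 8.11% and 11.5% in the same order. Of the 8 carriers that were lower by at least 1.5-fold, 1 (Slco1a1) held the nuclear receptor half-site and 1 (Slc22a15) the STAT5 element. These are matches of letters in short windows and were not tested as binding sites.

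The targeted gene and the tissue were checked first. Tmprss6 gave a signal of 88.2 in the Tmprss6-deficient liver and 1866 in the control, 21.2-fold lower, although the sources used here do not say whether the probes lie in the deleted part. Of 13 hepatocyte markers, all 13 were detected in both livers, and the albumin gene Alb read 27887 in the Tmprss6-deficient liver and 29306 in the control. Values are MAS5 signals, scaled here to a common mean. A gene is called detected on an array where its signal reached a floor of 17.8, the median signal over both arrays. Gene levels are not compared with each other, since each probe set has its own response, and ratios are Tmprss6-deficient over control. The only error these arrays give is the spread in log2 ratio among probe sets that read one gene, whose SD was 0.50 for detected signals under 64, 0.34 between 64 and 256, 0.21 between 256 and 1024 and 0.16 for brighter ones. It leaves out the variation between animals.

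Of the 12 uptake genes detected on both arrays, 6 were lower in the Tmprss6-deficient liver by at least 1.5-fold and 0 higher, and of the 10 efflux genes 2 were lower and 2 higher, where 8.29% of all genes were lower and 7.6% higher by that much. A further 5 uptake genes were detected on 1 array, 4 of them in the Tmprss6-deficient liver and 1 in the control. Of the 50 genes, 23 were detected on both arrays, 6 on 1 array and 21 on neither. Of all 18193 genes, 10243 were detected on both arrays and 5946 on neither. Those detected on 1 array were 1066 in the Tmprss6-deficient liver and 938 in the control. Among the 23, 8 (34.8%) were lower by at least 1.5-fold, against 8.29% of all 10243 genes detected on both arrays. A further 2 of the 23 (8.70%) were higher by at least 1.5-fold, close to the 7.6% of all genes. With the arrays scaled to their medians, those shares over all genes were 10.3% lower and 6.21% higher. Restricted to genes with a mean signal of at least 77.7, the 75th percentile of all signals, 5 of 16 carriers (31.2%) were lower and 1 of 16 (6.25%) was higher, against 5.94% and 5.26% of 6800 genes.

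**Figure D1:**
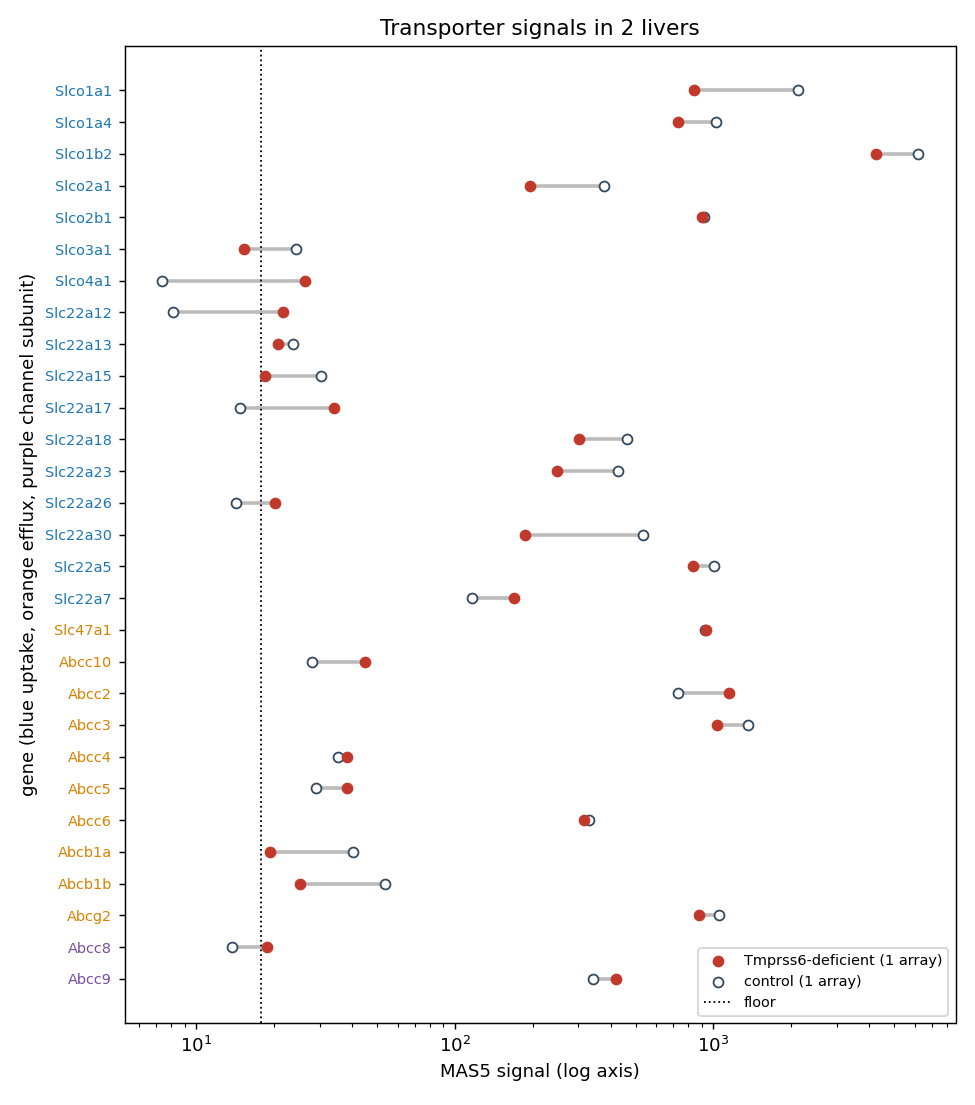
MAS5 signal (horizontal, log axis) of the 29 carriers detected on at least 1 array, with the Tmprss6-deficient liver as filled red points and the control liver as open points, 1 array each; the dotted line is the floor of 17.8. Red points lie left of the open ones for 11 of the 12 uptake genes detected on both, and on either side for the efflux genes.

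The median log2 ratio over the 12 uptake genes detected on both arrays was -0.58, and 11 of the 12 had a ratio below 0. Over the 10 efflux genes it was -0.020, with 5 below 0, and over all genes it was -0.0060, with 50.7% below 0. Without Slco1a1 and Slc22a30, which had the lowest ratios, the uptake median was -0.51 over 10 genes. For other transporters the same figures were as follows: 17 bile acid, lipid and copper transporters outside the symbol rule had a median of -0.066, with 2 past 1.5-fold upward and 0 downward, and 23 other hepatocyte solute carriers had a median of 0.028, with 2 upward and 1 downward. With the mean over all probe sets of a gene, the uptake median was -0.28 and 4 carriers in place of 8 were lower by at least 1.5-fold, against 5.31% of all genes in place of 8.29%. With plain probe sets only the efflux median was -0.26. Outside these medians, as detected in the Tmprss6-deficient liver alone, were Slc51b (19.3 in Tmprss6-/- and 15.1 in control liver) and Slc10a2, a bile acid uptake carrier gene best known from the ileum. Slc10a2 read 194 in the Tmprss6-deficient liver and 15.3 in the control, at least 10.9-fold higher. These groups were compared by counts only, and no test of the difference between them was possible.

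**Figure D2:**
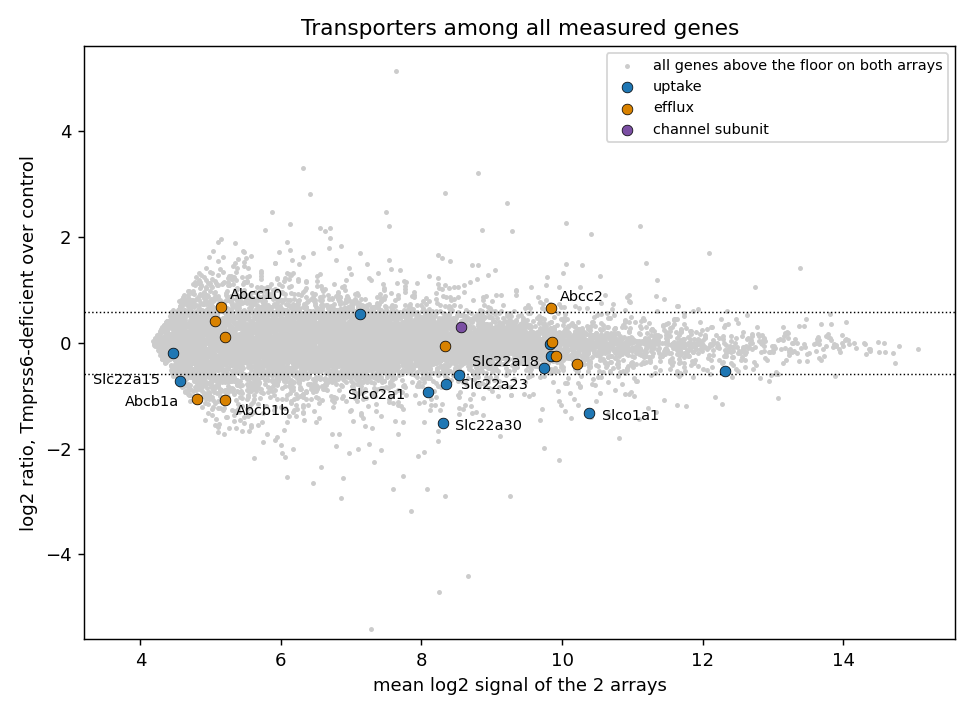
Log2 ratio, Tmprss6-deficient over control (vertical), against the mean log2 signal of both arrays (horizontal), for all 10243 genes detected on both arrays (grey) and the 23 carriers among them (coloured by direction of transport). Dotted lines mark 1.5-fold, and the 10 carriers past them are named; the grey cloud narrows at its left end because signals below the floor were left out.

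Among the Slco genes, which encode organic anion transporting polypeptides, all 5 detected on both arrays had a ratio below 0. Slco1a1, a carrier of bile acids and steroid conjugates that is known for higher expression in male than in female mouse liver, read 845 in the Tmprss6-deficient liver and 2124 in the control on its brighter probe set, and 390 in Tmprss6-/- and 1093 in control liver on the other. Both sets were lower, by 2.52-fold and 2.80-fold, or -1.33 and -1.49 on the log2 scale, a difference 8.2 times the probe set SD at that signal. The liver-specific uptake carrier Slco1b2, known for bile acid, bilirubin and drug uptake, read 4252 in the Tmprss6-deficient liver and 6172 in the control, a log2 ratio of -0.54 ± 0.16 (SD between probe sets). Its probe sets did not share a direction: another bright set had a ratio of -0.33, a dimmer one of 0.08 (576 in Tmprss6-/- and 545 in control liver), and 2 dim sets were detected in the Tmprss6-deficient liver alone, at least 1.88-fold and 1.58-fold higher. Slco1a4, known for uptake of cardiac glycosides such as digoxin, read 731 in the Tmprss6-deficient liver and 1020 in the control on its single probe set, a ratio of -0.48 ± 0.21. With the mean over all of its sets, Slco1b2 turned to 0.16. On their brightest sets all 3 of these Slco1 genes were lower, and of them only Slco1a1 passed 1.5-fold.

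The 6 Slco1 genes form a cluster on chromosome 6 according to RefSeq's table for GRCm38.p6. As counted here, a cluster may hold a few other protein-coding genes between its members. Besides Slco1a1, Slco1a4 and Slco1b2, the cluster holds Slco1c1, Slco1a5 and Slco1a6, which were not detected in either liver. Members of this cluster are similar in sequence, and their probes may hybridise to each other's RNA, which the deposited values cannot resolve.

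Slco2a1, the prostaglandin transporter, was lower on every one of its 4 probe sets. The brightest read 196 in the Tmprss6-deficient liver and 376 in the control, 1.91-fold lower, with a log2 ratio of -0.93 ± 0.21. Other sets gave -0.95 (42.0 in Tmprss6-/- and 81.0 in control liver) and -0.55 (26.0 in Tmprss6-/- and 38.1 in control liver), and the fourth was detected in the control alone, at least 1.26-fold lower. In contrast, Slco2b1, a carrier of steroid sulfates, was close between the livers, at 900.0 in the Tmprss6-deficient liver and 916 in the control, with a second set at 419 in Tmprss6-/- and 485 in control liver. Slco3a1 was detected in the control alone (15.3 in Tmprss6-/- and 24.3 in control liver), and Slco4a1 only in the Tmprss6-deficient liver (26.4 in Tmprss6-/- and 7.39 in control liver), so each has only a bound, at least 1.36-fold lower and at least 1.48-fold higher.

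Prostaglandin transporter RNA is known from blood vessels, so vessel and duct markers are given beside it. Of 14 endothelial markers, 13 were detected in both livers, of which 2 passed 1.5-fold upward and 2 downward, and their summed signal was 2227 in the Tmprss6-deficient liver and 2211 in the control. Their log2 ratios ran from -0.98 for Clec4g to 2.24 for Lyve1, with 9 above 0 and 4 below. Kdr, Tek and Vwf were below 0 (-0.63, -0.50 and -0.48), Pecam1, Cdh5 and Stab2 above it (0.33, 0.13 and 0.14), and Emcn was detected in the control alone, at least 1.66-fold lower. Stellate and mural markers summed to 4194 in the Tmprss6-deficient liver and 4388 in the control over 14 genes, and within them the smooth muscle genes Acta2 (89.3 in Tmprss6-/- and 514 in control liver), Tagln (16.0 in Tmprss6-/- and 176 in control liver) and Myh11 (1.8 in Tmprss6-/- and 70.5 in control liver) were lower. Of the 11 stellate and mural markers detected on both arrays, 7 had a ratio above 0 and 4 below, with a median log2 ratio of 0.07. Cholangiocyte markers summed to 190 in the Tmprss6-deficient liver and 365 in the control over 9 genes. Of these, Slc4a2 was detected in both livers (123 in Tmprss6-/- and 160 in control liver), 6 (Krt19, Krt7, Epcam, Cldn7, Muc1 and Prom1) in the control alone, 0 in the Tmprss6-deficient liver alone, and 2 in neither. Kupffer cell markers had a median log2 ratio of -0.41 over 11 genes (1 past 1.5-fold upward, 3 downward), with sums of 3330 in the Tmprss6-deficient liver and 4500 in the control. The part of these cells in the Slco2a1 difference was not tested. In whole liver, fewer cells of a type and less RNA per cell cannot be told apart. Over the remaining lists, the sums were 344 in Tmprss6-/- and 380 in control liver for neutrophil and lymphocyte markers, 74 in Tmprss6-/- and 42 in control liver for mast cell markers, 484 in Tmprss6-/- and 850 in control liver for erythroid markers, and 234 in Tmprss6-/- and 285 in control liver for kidney or pancreas markers. In that order, 6 of 11, 1 of 6, 3 of 7 and 1 of 8 markers were detected on both arrays. The sums in this paragraph include signals under the floor and can rest on 1 gene. Within the erythroid sum, Alas2 read 232 in Tmprss6-/- and 592 in control liver. Within the kidney or pancreas sum, Cela1 read 146 in Tmprss6-/- and 228 in control liver.

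In the Slc22a family, which carries organic anions, organic cations and carnitine, 6 of the 7 genes detected on both arrays had a ratio below 0 and 4 were lower by at least 1.5-fold. Slc22a30, a member of the anion carrier branch, read 186 in the Tmprss6-deficient liver and 533 in the control on its single probe set, 2.86-fold lower, with a log2 ratio of -1.52 ± 0.21. A probe set annotated to both Slc22a30 and its neighbour Slc22a29 was detected on neither array (13.4 in Tmprss6-/- and 0.899 in control liver) and was not used. Slc22a23, an orphan member with no transport substrate assigned here, read 249 in the Tmprss6-deficient liver and 427 in the control, 1.72-fold lower (-0.78 ± 0.21). On chromosome 19, Slc22a30 lies in a cluster of 8 Slc22a genes in the RefSeq table, of which it was the only one detected on both arrays. Slc22a19, Slc22a27, Slc22a29, Slc22a6 and Slc22a8 were detected on neither, and Slc22a26 in the Tmprss6-deficient liver alone (20.1 in Tmprss6-/- and 14.2 in control liver, at least 1.13-fold higher).

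The imprinted gene Slc22a18 was 1.54-fold lower on its brighter set, at 301 in the Tmprss6-deficient liver and 462 in the control, but its other set read 211 in Tmprss6-/- and 174 in control liver, a log2 ratio of 0.28 in the opposite direction. Slc22a5, which encodes the carnitine importer OCTN2, read 836 in the Tmprss6-deficient liver and 1004 in the control, a ratio of -0.26 ± 0.21, with its second set at 0.08. Thus for carnitine uptake the 2 probe sets pointed in different directions and both lay within 1.5-fold. Slc22a15 was 1.65-fold lower at a dim signal (18.4 in the Tmprss6-deficient liver and 30.4 in the control). Its other set was detected on neither array. With the mean of both sets the log2 ratio of Slc22a15 was -0.36, and with the floor as a pseudocount -0.41, both within 1.5-fold. Slc22a13 read 20.6 in Tmprss6-/- and 23.7 in control liver. The exception in the family was Slc22a7, which encodes the organic anion transporter OAT2. It read 169 in the Tmprss6-deficient liver and 116 in the control, a ratio of 0.54 ± 0.34 that lies just under 1.5-fold.

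Other dim Slc22a genes were detected on 1 array only. Slc22a17, the lipocalin-2 receptor gene, read 34.0 in the Tmprss6-deficient liver and 14.8 in the control, at least 1.91-fold higher. Slc22a12, the urate transporter gene of the kidney, read 21.7 in Tmprss6-/- and 8.09 in control liver, at least 1.22-fold higher. Their control signals lie below the floor, where no probe set SD was measured.

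**Figure D3:**
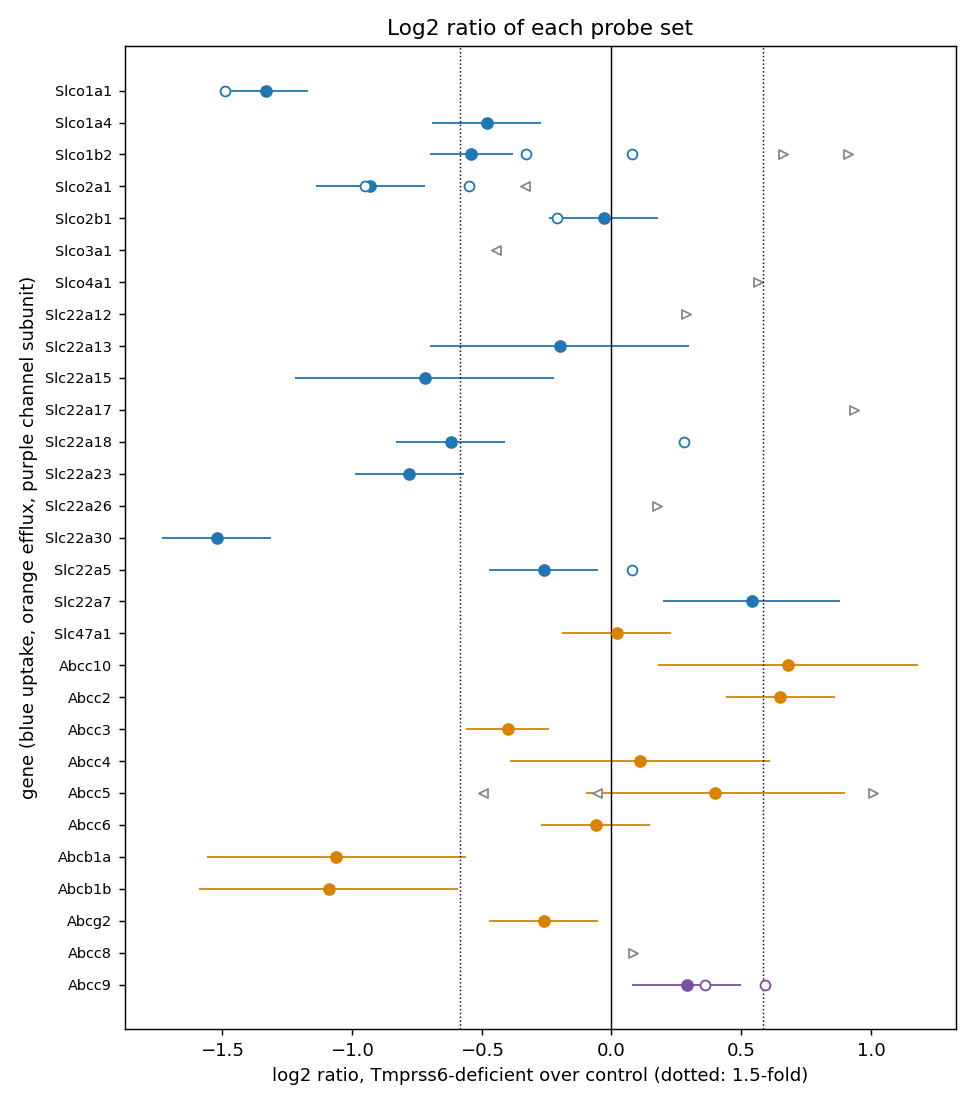
Log2 ratio, Tmprss6-deficient over control (horizontal), for each probe set of the 29 carriers. Filled points are the set with the highest mean signal, with bars of ± 1 SD between probe sets at that signal; open circles are further sets detected on both arrays, and grey triangles are lower bounds for sets detected on 1. The 2 sets of Slco1a1 lie together at -1.33 and -1.49, whereas those of Slc22a18 lie on opposite sides of 0.

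Efflux pumps on the canalicular, bile-facing membrane did not share a direction. Abcc2 (MRP2), which exports bilirubin glucuronides and glutathione conjugates into bile, read 1146 in the Tmprss6-deficient liver and 728 in the control. On this single probe set Abcc2 was 1.57-fold higher, with a log2 ratio of 0.65 ± 0.21. The set drops out where plain probe sets only are kept. Abcg2 (BCRP), which exports urate and sulfate conjugates, read 878 in the Tmprss6-deficient liver and 1053 in the control, a ratio of -0.26 ± 0.21. Slc47a1 (MATE1), the proton-coupled exporter of organic cations, read 939 in Tmprss6-/- and 925 in control liver, a ratio of 0.02 that turned to -0.046 when the arrays were scaled to their medians.

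Both P-glycoprotein genes, whose products pump many hydrophobic drugs out of cells, were lower at dim signals. Abcb1a read 19.3 in the Tmprss6-deficient liver and 40.2 in the control, 2.08-fold lower. Abcb1b read 25.2 in Tmprss6-/- and 53.8 in control liver, 2.13-fold lower. With an SD of 0.50 at that signal, the log2 ratios of -1.06 and -1.09 are 2.1 and 2.2 times the SD. The other set of each gene was detected on neither array. With the mean of both sets the ratios were -0.53 and -0.55, within 1.5-fold, and with the floor as a pseudocount -0.64 and -0.73, within 2-fold. Abcb1a and Abcb1b lie near each other on chromosome 5 and are close in sequence, so their sets may not read separate RNAs. At 2-fold or more, 4 carriers were lower (Slco1a1, Slc22a30, Abcb1a and Abcb1b), against 2.41% of all genes, and 0 were higher, against 2.01%.

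Among the pumps of the blood-facing membrane, Abcc3 (MRP3), which returns glucuronides to blood, read 1034 in the Tmprss6-deficient liver and 1366 in the control, a log2 ratio of -0.40 ± 0.16. Abcc4 (MRP4), an exporter of cyclic nucleotides and conjugates, read 38.1 in Tmprss6-/- and 35.4 in control liver. So Abcc2 and Abcc3, pumps of opposite membranes with overlapping substrates, differed in opposite directions, Abcc2 past 1.5-fold and Abcc3 within it. Each was read by 1 probe set. Abcc6, the gene mutated in pseudoxanthoma elasticum, was close, at 317 in the Tmprss6-deficient liver and 330 in the control. Abcc10, dim on both arrays, was 1.60-fold higher (44.9 in Tmprss6-/- and 28.0 in control liver). Its other set was detected on neither array. With the mean of both sets the log2 ratio of Abcc10 was 0.34, and with the floor as a pseudocount 0.45, both within 1.5-fold. Abcc5, an exporter of cyclic nucleotides, had 1 of its 10 sets detected on both arrays, with a ratio of 0.40 ± 0.50 (38.4 in Tmprss6-/- and 29.1 in control liver), and of 3 others detected on 1 array, 1 was higher and 2 were lower. Of the 6 Abcc pumps detected on both arrays, 4 had a ratio above 0 and the median was 0.25.

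The channel subunit genes stood outside both groups. Abcc9 (SUR2), known from vascular smooth muscle and pericytes, read 419 in the Tmprss6-deficient liver and 342 in the control, and all 3 of its sets were higher, with log2 ratios of 0.29, 0.36 and 0.59. Its direction was the opposite of that of the smooth muscle genes Acta2, Tagln and Myh11 given above. Of the 11 stellate and mural markers detected on both arrays, 7 shared the direction of Abcc9 and 4, Acta2 among them, did not. The channel partner gene Kcnj8 read 28.5 in the Tmprss6-deficient liver and 36.4 in the control. Abcc8 (SUR1) was barely detected, in the Tmprss6-deficient liver alone (18.8 in Tmprss6-/- and 13.7 in control liver, at least 1.06-fold higher).

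The remaining carriers were detected in neither liver and get no ratio. They were Abcc1, Abcc12, Slc22a2, Slc22a4, Slc22a6, Slc22a8, Slc22a14, Slc22a16, Slc22a19, Slc22a21, Slc22a22, Slc22a27, Slc22a29, Slco1a5, Slco1a6, Slco1c1, Slco4c1, Slco5a1, Slco6b1, Slco6c1 and Slco6d1. Several are known from other organs, such as Slc22a6 and Slc22a8 (the renal anion carriers OAT1 and OAT3) and Slco1c1 (a thyroid hormone carrier of brain vessels). Other genes of the RefSeq table with such symbols, among them Slc22a3, Slc22a13b, Slc22a20, Slc22a28 and Slc47a2, are not analysed here because no probe set was annotated to them alone.

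Of 7 carriers with 2 or more sets detected on both arrays, all sets shared a direction for 4 (Slco1a1, Slco2a1, Slco2b1 and Abcc9) and did not for 3 (Slco1b2, Slc22a5 and Slc22a18). Of the 17 such sets of these 7 genes, 11 were lower and 6 were higher.

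Regulators of transporter genes differed in both directions. Of 21 detected on both arrays, 2 passed 1.5-fold upward and 4 downward, and their median log2 ratio was 0.069. The receptor genes that answer to drugs and bile acids diverged: Nr1i3 (CAR) read 807 in the Tmprss6-deficient liver and 1364 in the control, 1.69-fold lower, whereas Nr1i2 (PXR) read 335 in Tmprss6-/- and 231 in control liver and Nr1h4 (FXR) 820 in Tmprss6-/- and 571 in control liver, with log2 ratios of 0.53 and 0.52. Hnf4a, which encodes a factor that many hepatocyte carriers depend on, was 1.54-fold higher on the brightest of 4 sets, all of them higher (4856 in Tmprss6-/- and 3144 in control liver). Ahr had a ratio of -0.47 with its sets in different directions, and Nfe2l2 (NRF2) one of -0.05. Foxa2, a liver forkhead factor gene, read 250 in the Tmprss6-deficient liver and 126 in the control, 1.99-fold higher. Lowest were Bcl6, a repressor in the growth hormone pathway, at 168 in the Tmprss6-deficient liver and 534 in the control (3.18-fold lower), Nr0b2 (SHP, 2.26-fold lower) and Nr5a2 (2.08-fold lower, with 1 of 3 sets in the opposite direction). Stat5b read 172 in Tmprss6-/- and 152 in control liver.

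Known targets of these regulators and female-biased genes differed in both directions, whereas the male-biased genes past 1.5-fold were all lower. CAR and PXR targets had a median log2 ratio of -0.13 over 16 genes, with 4 past 1.5-fold upward and 3 downward, among them Cyp2b10 (863 in the Tmprss6-deficient liver and 121 in the control), Sult1d1 (0.90) and Aldh1a7 (-1.08). For 12 NRF2 targets the median was -0.017, with 1 upward and 3 downward, among them Me1 at 1.26, Gsta2 at -0.98 and Gsta4 at -1.36. Of 3 AHR targets detected on both arrays, Cyp1a2 had a ratio of -1.23, Tiparp one of 0.59 and Nfe2l2, counted above as well, one of -0.05 (median -0.055). Male-biased liver genes other than Slco1a1 had a median of -0.91 over 12 genes, with 9 past 1.5-fold downward and 0 upward, led by Ugt2b38 (-2.94), Hsd3b5 (-2.54) and Cyp7b1 (-1.17), so Slco1a1, at -1.33, lay within their range. Of 13 female-biased genes, 6 were detected on both arrays, 6 on neither and 1 in the Tmprss6-deficient liver alone. For the 6 detected on both arrays the median was 0.060, with 2 past 1.5-fold upward and 1 downward. Among these 6 were Cyp17a1 at 1.10, Fmo2 at 0.70 with its sets in different directions, and Acot3 at -1.02. These lists were drawn up with earlier results of the same arrays known, so their directions add no independent evidence.

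**Figure D4:**
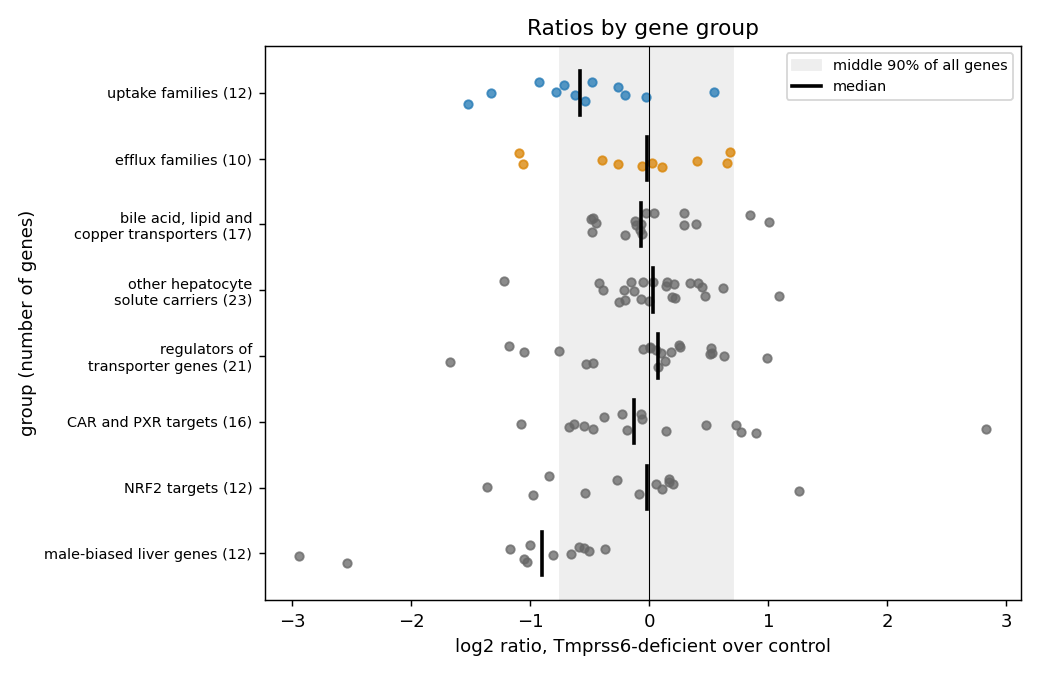
Log2 ratio, Tmprss6-deficient over control (horizontal), of each gene detected on both arrays in the uptake and efflux families and in 6 other lists, with the number of genes in brackets and the median as a black bar; the grey band spans the middle 90% of all genes, from -0.75 to 0.71. The uptake median of -0.58 lies left of the efflux median of -0.020, and male-biased liver genes have a median of -0.91.

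Proteins that anchor carriers in the membrane had a median log2 ratio of -0.064 over 12 genes, of which 0 passed 1.5-fold upward and 2 downward. Slc9a3r1 (NHERF1), a scaffold that binds the tails of apical carriers, read 798 in the Tmprss6-deficient liver and 1543 in the control, 1.93-fold lower on the brightest of 3 sets, all of them lower. Msn (moesin) was 1.75-fold lower (106 in Tmprss6-/- and 185 in control liver) with its sets in different directions, and Vipas39 had a ratio of 0.48. Pdzk1, the scaffold known to hold Slco1a1 at the membrane, read 425 in the Tmprss6-deficient liver and 412 in the control. Among transporters outside the symbol rule, ratios were 1.01 for the peptide transporter gene Tap2, 0.85 for Abca6 and -0.49 for the sterol transporter gene Abcg5. Other solute carriers ranged from -1.22 for Slc46a3 to 1.09 for the amino acid transporter gene Slc16a10, and Slc16a7, a monocarboxylate carrier gene, had a ratio of 0.62.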

How the data were processed

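Liver RNA was labelled with biotin and hybridised to 2 arrays, per the labels' protocols. The deposited intensity values, 1 signal per probe set and array, were made by the authors with MAS5, per the submitters' processing notes; no source used here gives the version or the settings. Signals ran from 0 to 42541 over 45101 probe sets. Here both arrays were scaled to the same mean, taken without the lowest and highest 2% (factors 1.0013 for the Tmprss6-deficient and 0.9987 for the control array), and signals under the floor of 17.8 were set to it before taking log2. The floor is the median over both arrays without 64 control sets. Each gene is represented by its probe set of highest mean log2 signal. Genes detected on both arrays get a ratio, and those detected on 1 a bound against the floor. For the probe set SD, the log2 ratios of the 2 brightest sets of a gene, both in the same signal range, were subtracted, and the SD of these differences was divided by the square root of 2. Names came from the platform annotation, and all 50 gene identifiers were found in RefSeq's GRCm38.p6 table, which changed 0 symbols. Carriers detected on at least 1 array are named with values, as are Tmprss6, up to 3 genes of each pathway list with the largest ratios, and fixed regulators. Alb, Stat5b, Foxa2, Pdzk1, Kcnj8, Slc10a2, Slc51b and the marker genes were picked outside that rule, with their values known. The members and lists were chosen with earlier results of these data known. The steps were tested on simulated data, with changes placed only in bright genes and the same noise at every signal. Recovery of differences near the floor was not tested. Calculations used Python 3.11.15, numpy 2.4.6, pandas 2.3.3, statsmodels 0.14.6 and matplotlib 3.10.9. Depth is unknown for arrays, and their number limits the precision. Alternatives were other scalings, floors, filters and choices of probe set.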

Additional observations from a re-analysis of the deposited data

How the results depend on the processing

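Each carrier's log2 ratio was recomputed under 10 alternatives (deposited values without scaling, or scaled by median, quantiles or loess; a floor at the 30th or the 70th percentile, or one added as a pseudocount; averaging all probe sets, or keeping plain ones only; and filtering on the mean signal). Of 219 recomputed ratios, 214 moved by less than the probe set SD, and none of the carriers past 1.5-fold changed sign. The 5 others all came from the mean of all probe sets, which includes sets at the floor: Abcb1a (-0.53), Abcb1b (-0.55), Slc22a18 (-0.17), Slco2a1 (-0.69) and Slco1b2, within 1.5-fold, whose ratio was 0.16. The floors at the 30th and 70th percentiles and the filter on the mean signal left the recomputed ratios unchanged and altered which genes got one. Averaging cannot move a carrier with 1 probe set. The 214 thus include many ratios with little or no room to move, and their number is no measure of stability. The 8 lower carriers became 5 of 16 with the floor at the 70th percentile (5.71% of all genes were lower) and 4 of 23 with the mean of all probe sets (5.31%), and were 7 to 9 otherwise. The 2 higher carriers became 5 of 29 with the floor at the 30th percentile (11.4% of all genes were higher), 1 of 16 at the 70th percentile (5.01%), 1 of 23 with the pseudocount (4.49%), 1 of 23 with the mean of all probe sets (5.31%), 3 of 25 with the filter on the mean signal (8.94%) and 0 of 19 with plain probe sets only (7.94%), which leaves out the sets of Abcc2 and Abcc10. The uptake median stayed below 0 under all 10, at -0.28 with the mean of all probe sets and between -0.65 and -0.48 otherwise. The efflux median was -0.26 with plain probe sets only and between -0.088 and -0.018 otherwise. No paired analysis was possible because each group has 1 sample. Signals near the floor are noisy, saturation and detection calls were not assessed here, and differences between animals cannot be told apart from the genotype.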
